A study of Ovis aries with 10 samples.

Results

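The genes described here are 10 classic targets of the glucocorticoid and progesterone receptors: FKBP5, TSC22D3, ZBTB16, SGK1, KLF9, CEBPD, ERRFI1, PDK4, HIF3A and CDKN1A. They were chosen by symbol from a table of 33775 genes, and all 10 were present and had enough reads to be tested. Reads were counted in mediobasal hypothalamus, the block at the base of the brain that controls the pituitary, from adult Ile-de-France ewes in the follicular phase, when oestrogen rises before ovulation, or in the luteal phase, when the corpus luteum secretes progesterone. RNA of 20 ewes, 10 per phase, was combined at random in equal amounts into 5 libraries per phase, each from 2 ewes and no ewe in both phases. A library is therefore the mean of a pair of ewes and can hide a difference between them, and neither plasma hormone levels nor the day of the cycle are given in the sources used here.

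Glucocorticoid, mineralocorticoid and progesterone receptors are close relatives that bind the same palindromic DNA element, so one target gene can answer to several steroids. Without hormone they are held by a complex of heat shock protein 90 and co-chaperones. On binding hormone they move to the nucleus and switch on genes such as FKBP5, whose product lowers the receptor's affinity for hormone in a short feedback loop. In the brain these genes are best known for their rise after stress or corticosteroid treatment, in neurons, in glia and in vessels.

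Follicular libraries held 20644992 to 43193449 reads and luteal ones 28571863 to 42358557, and each member had at least 107 reads in every library. Follicular 1 and 3 had the fewest reads and the largest shares on ribosomal protein genes, 8.44% and 8.45%. That share was 4.32% in follicular 5 and 4.49% to 6.48% in luteal libraries. Levels are read counts scaled to library size with the TMM method (CPM), and fold changes are log2 of luteal over follicular. The tissue label was checked on 8 genes of this region (POMC, AGRP, NPY, KISS1, TAC3, GHRH, TBX3 and NR5A1), all of which were tested, with a summed level of 1288 to 2192 CPM (follicular) and 1277 to 1786 CPM (luteal). Marker genes of pituitary and pars tuberalis, taken as 1 list, were also present, at 2451 to 4789 CPM in sum. Red blood cell markers summed to at most 0.973 CPM in any library, with ALAS2 at 0. The first principal component of the libraries after removal of the phase means held 48.4% of the variance, with follicular 5 (70.7) and luteal 5 (39.9) highest, and follicular 3 (-40.6), luteal 1 (-36.2) and follicular 1 (-34.2) lowest.

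FKBP5, the immunophilin of the feedback loop, varied far more between libraries of a phase than between the phases. Follicular libraries 1 to 5 had 30.3, 69.6, 64.4, 93.5 and 149.5 CPM. Luteal libraries 1 to 5 had 18.2, 29.7, 97.2, 104 and 222 CPM. Library 1 was lowest and library 5 highest in each phase, the follicular range lay inside the luteal one with luteal 1, 2 and 5 outside it, and the highest luteal library exceeded the lowest by 12.2-fold. The follicular mean was 81.5 ± 44.2 CPM and the luteal mean 94.2 ± 81.3 CPM (± SD, n = 5 each; log2 fold change 0.21, 95% interval -1.08 to 1.497; edgeR adjusted p = 0.863). The direction rested on luteal 5: without it the log2 fold change was -0.39. In such bulk tissue fewer cells of a type and less RNA per cell cannot be told apart.

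Of the members 5 encode transcription regulators, beginning with ZBTB16, also called PLZF, a zinc finger repressor. ZBTB16 had 30.6, 60.7, 97.2, 136 and 149 CPM in follicular libraries 1 to 5 and 33.6, 40.1, 48.6, 87.5 and 188 CPM in luteal libraries 1 to 5. The order of the libraries was nearly that of FKBP5, with library 1 lowest and library 5 highest in both phases, and the phases overlapped. The means were 94.7 ± 49.9 and 79.6 ± 64.3 CPM (± SD, n = 5 each; log2 fold change -0.25, 95% interval -1.37 to 0.86; edgeR adjusted p = 0.804).

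KLF9, a Krüppel-like factor also induced by thyroid hormone, had 16.7, 28.4, 24.1, 30.8 and 47.3 CPM in follicular libraries 1 to 5. Its luteal libraries had 16.4, 27.1, 43.0, 31.6 and 57.4 CPM. Again the libraries numbered 1 were the lowest and those numbered 5 the highest of their phase. The means were 29.4 ± 11.3 and 35.1 ± 15.7 CPM (± SD, n = 5 each; log2 fold change 0.25, 95% interval -0.47 to 0.96; edgeR adjusted p = 0.685).

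HIF3A, a member of the hypoxia-inducible factor family that can hold back the others, had 14.0, 13.3, 21.1, 33.1 and 46.7 CPM in follicular and 14.2, 18.3, 28.1, 17.5 and 32.9 CPM in luteal libraries 1 to 5. Library 5 was the highest of each phase, and the low libraries of the phases were alike. The log2 fold change was -0.21 (95% interval -0.99 to 0.56; edgeR adjusted p = 0.759), and it was 0.12 without follicular 5.

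TSC22D3 encodes GILZ, the glucocorticoid-induced leucine zipper that damps inflammatory transcription. It had 225, 202, 247, 240.4 and 235 CPM in follicular libraries 1 to 5 and 177, 179, 211, 228 and 237 CPM in luteal libraries 1 to 5. Its range was the narrowest of the 10 genes: the highest library exceeded the lowest by 1.22-fold in the follicular and by 1.34-fold in the luteal phase. Luteal 1 and 2 lay below every follicular library, and the other 3 luteal libraries lay within the follicular range. The means were 229.9 ± 17.6 and 206 ± 27.7 CPM (± SD, n = 5 each; log2 fold change -0.16, 95% interval -0.39 to 0.08; edgeR adjusted p = 0.479).

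CEBPD, a leucine zipper factor of the acute-phase response, had a different order of libraries. Follicular libraries 1 to 5 had 103, 117, 102, 133 and 71.2 CPM, and luteal libraries 1 to 5 had 65.4, 122, 73.5, 307 and 118 CPM. Follicular 5, the highest follicular library for FKBP5, was here the lowest, and luteal 4 stood far above the other 4 luteal libraries. The means were 105 ± 22.8 and 137 ± 98.2 CPM (± SD, n = 5 each; log2 fold change 0.38, 95% interval -0.42 to 1.19; edgeR adjusted p = 0.584). The sign came from luteal 4, since the log2 fold change without it was -0.15.

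**Figure D1:**
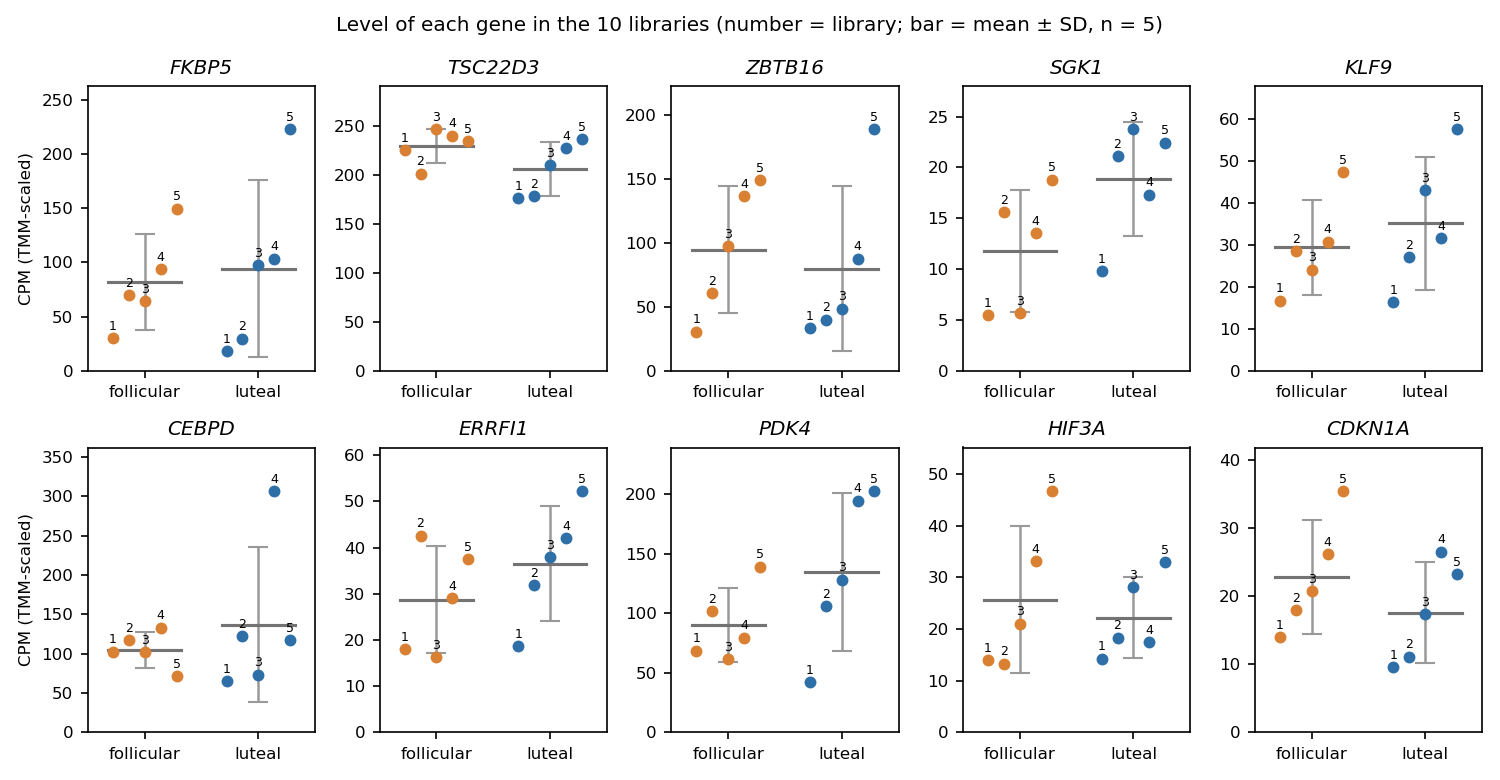
TMM-scaled CPM of each of the 10 genes (vertical axes, from 0) in the 5 follicular (orange) and 5 luteal (blue) libraries. Numbers give the library, horizontal bars the mean and error bars the SD over 5 libraries. The 2 phases overlap for all 10 genes, and library 1 is the lowest of both phases for FKBP5, ZBTB16, SGK1, KLF9 and CDKN1A.

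Among kinases and signalling proteins, SGK1 had the largest average difference between the phases. SGK1 is a kinase that raises sodium transport and ion channel density at the membrane. Follicular libraries 1 to 5 had 5.48, 15.6, 5.68, 13.6 and 18.8 CPM, and luteal libraries 1 to 5 had 9.83, 21.1, 23.7, 17.3 and 22.4 CPM. Of the luteal libraries 3 lay above all follicular ones, luteal 1 and luteal 4 lay within the follicular range, and follicular 1 and 3 were the lowest of all. The means were 11.8 ± 5.999 and 18.9 ± 5.60 CPM (± SD, n = 5 each; log2 fold change 0.67, 95% interval -0.11 to 1.44; edgeR adjusted p = 0.432). Without follicular 1 and 3 together the log2 fold change was 0.24.

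PDK4 is the mitochondrial kinase that shuts pyruvate dehydrogenase and turns cells from glucose to fat as fuel. It had 68.5, 102, 61.6, 79.5 and 139 CPM in follicular and 42.1, 106, 128, 195 and 203 CPM in luteal libraries 1 to 5. Luteal 1 was the lowest of all 10 libraries, while luteal 4 and 5 were above every follicular library. The means were 90.1 ± 31.4 and 135 ± 66.4 CPM (± SD, n = 5 each; log2 fold change 0.58, 95% interval -0.22 to 1.37; edgeR adjusted p = 0.453).

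ERRFI1, or MIG6, is an inhibitor of the epidermal growth factor receptor. It had 18.02, 42.6, 16.3, 29.1 and 37.6 CPM in follicular and 18.7, 31.9, 37.9, 42.1 and 52.3 CPM in luteal libraries 1 to 5. Follicular 1, follicular 3 and luteal 1 formed a low group apart from the other 7 libraries. The log2 fold change was 0.34 (95% interval -0.33 to 1.01; edgeR adjusted p = 0.557).

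CDKN1A encodes p21, an inhibitor of cyclin-dependent kinases that stops the cell cycle. It had 13.9, 17.9, 20.7, 26.2 and 35.4 CPM in follicular and 9.61, 11.1, 17.3, 26.5 and 23.3 CPM in luteal libraries 1 to 5. Luteal 1 and 2 were below all follicular libraries, and follicular 5 was above all luteal ones. The log2 fold change was -0.38 (95% interval -1.06 to 0.30; edgeR adjusted p = 0.530).

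None of the 10 genes passed the edgeR quasi-likelihood test of luteal against follicular phase, where 0 of 18276 genes (0%) passed after adjustment. The unadjusted p was under 0.05 for 0 of the 10, against 11.4% of all genes tested, and the smallest was 0.0866, for SGK1. DESeq2 called 35 genes and limma-voom 0, in each case with 0 of the 10 among them. When limma-voom weighted each library by its estimated quality, 5867 of 18276 genes were called. With them were 2 of the 10, SGK1 as higher (log2 fold change 0.94, adjusted p = 0.0321) and TSC22D3 as lower (-0.28, adjusted p = 0.0345). The share called was no larger among the 10 than among all genes. Of the 10 genes 6 averaged higher and 4 lower in luteal libraries, beside 51.5% of all genes higher. Their median log2 fold change was 0.23, against 0.01 over all genes. The phases failed to overlap for 0 of the 10, against 1.12% of all genes. A change of more than 1 on the log2 scale lay within the 95% interval for 7 of the 10 genes, all but TSC22D3, KLF9 and HIF3A.

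**Figure D2:**
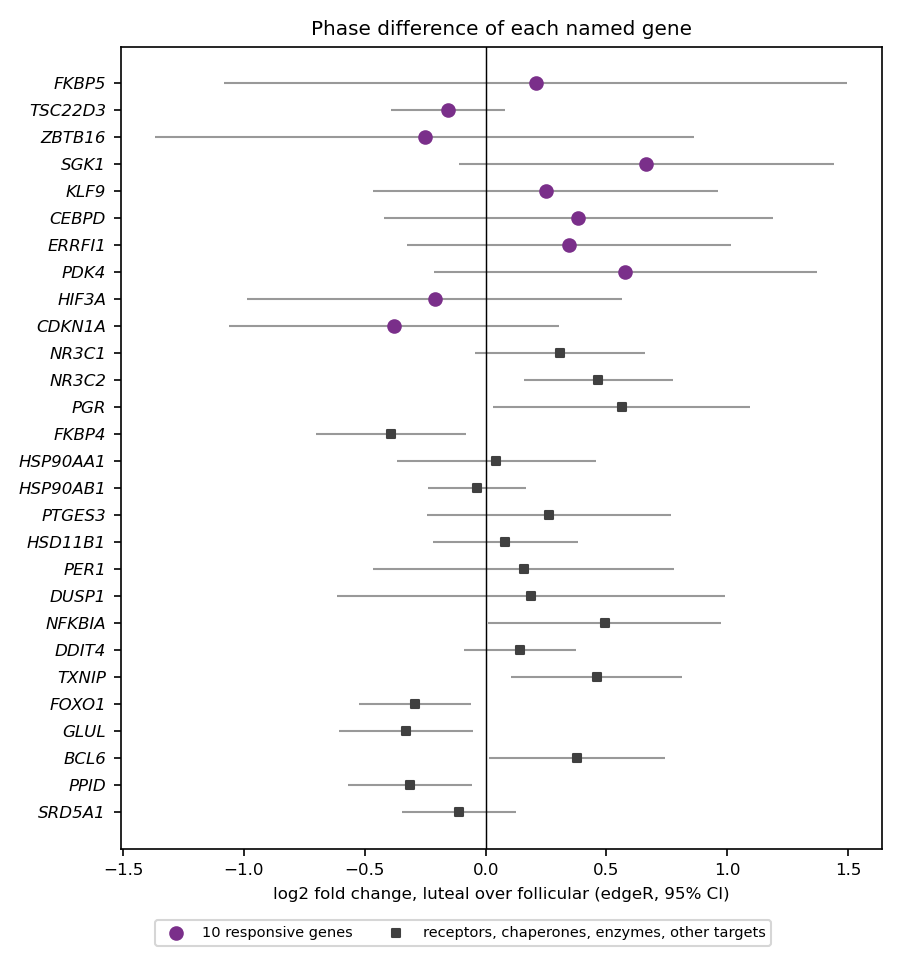
Log2 fold change of luteal over follicular libraries (horizontal axis) with its 95% interval from edgeR, for the 10 genes (circles) and for receptors, chaperones, enzymes and other targets (squares). All 10 intervals of the circles cover 0, and those of FKBP5 and ZBTB16 are the widest.

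Most of these genes varied widely between libraries of a phase. The within-phase standard deviation of log2 CPM was 1.19 for FKBP5, 0.98 for ZBTB16 and 0.73 for PDK4, where the median over all genes tested was 0.31. Only 145 of the 18276 genes had a larger spread than FKBP5, and 317 had a larger one than ZBTB16. Since genes with few reads scatter more, each gene was also ranked within the tenth of genes nearest to it in level. There 9 of the 10 lay above the 95th percentile, from 95.7 for CDKN1A to 99.9 for FKBP5, and TSC22D3 lay at the 34.7th. TSC22D3 had a lower spread than most genes of its level. Of the other responsive genes named below, DUSP1 (99.1) and PER1 (96.6) also lay above the 95th percentile. NFKBIA (90.3), BCL6 (73.9), TXNIP (68.2), GLUL (46.2), DDIT4 (33.9) and FOXO1 (15.8) did not.

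**Figure D3:**
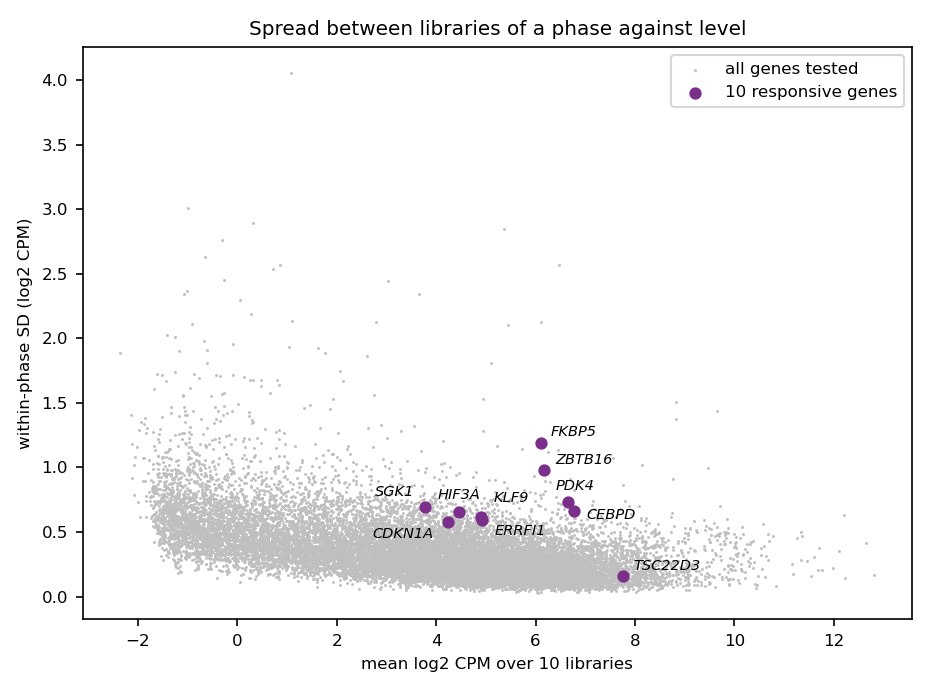
Standard deviation of log2 CPM between libraries after subtraction of the phase means (vertical axis) against mean log2 CPM over 10 libraries (horizontal axis), for all 18276 genes tested (grey) and the 10 genes (purple). All but TSC22D3 sit at the upper edge of the cloud at their level, with FKBP5 at 1.19, and TSC22D3 sits inside it at 0.16.

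The libraries that were high or low were largely the same from gene to gene. Luteal 1 was the lowest luteal library for all 10 genes, by a median of -0.88 on the log2 scale from its phase mean. Luteal 5 was the highest for 7 (FKBP5, TSC22D3, ZBTB16, KLF9, ERRFI1, PDK4 and HIF3A), and follicular 5 was the highest follicular library for 7 (FKBP5, ZBTB16, SGK1, KLF9, PDK4, HIF3A and CDKN1A). Follicular 1 was the lowest for 5. CEBPD departed most from this order, with its highest values in follicular 4 and luteal 4. The share of all genes with the same highest or lowest libraries was not counted, so the order is not set apart from that of other genes. On the first principal component, too, luteal 1 (-36.2) was the lowest luteal library, and follicular 5 (70.7) and luteal 5 (39.9) were the highest of their phases.

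**Figure D4:**
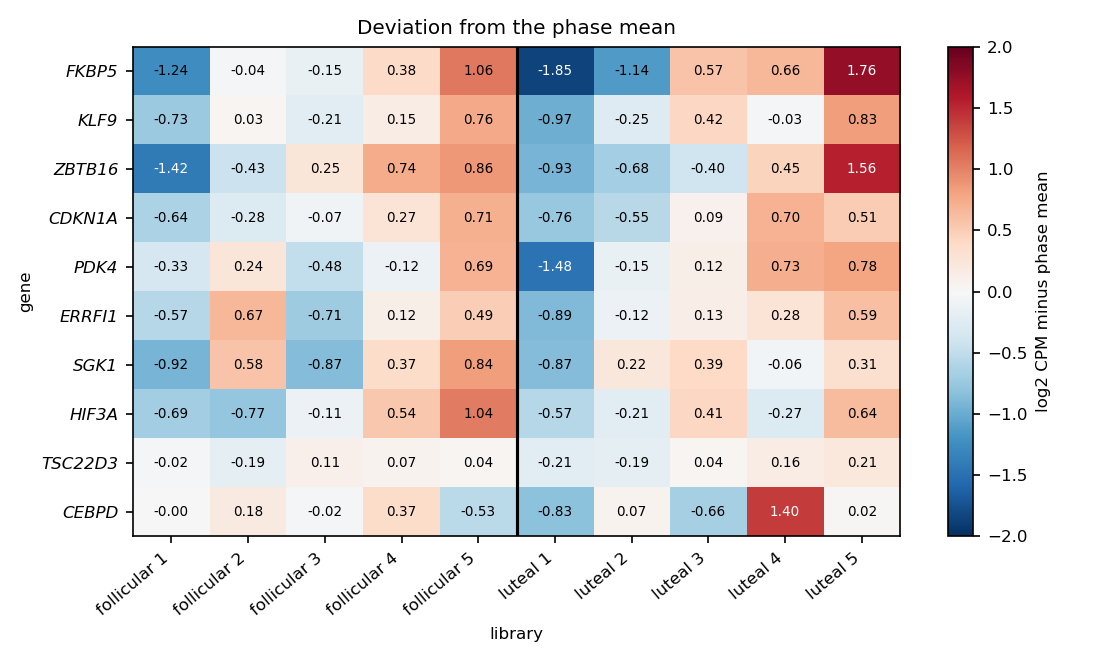
Log2 CPM of each gene (rows) in each library (columns) minus the mean of its phase, with the value printed in each cell. Red columns at follicular 5 and luteal 5 and blue columns at follicular 1 and luteal 1 run through most rows, and the TSC22D3 row is pale.

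Covariation was measured as Pearson's r of log2 CPM after subtraction of each phase mean, over 10 libraries, since 5 libraries of 1 phase are too few for a correlation. Unrelated genes can also correlate among libraries, and the part of library depth or composition in this was not tested. Of the 45 pairs of these genes 44 had r above 0, with a median of 0.68, against a median of 0.00 over all pairs of genes tested. With the replicate number of the labels subtracted as a block as well, the median of the 45 pairs was 0.18. No ewe is shared between libraries of the same number. An r above 0.8 was reached by 14 of the 45 pairs (31.1%), against 6.78% of all pairs. In a two-sided exact permutation test that shuffled libraries within phases, 20 of the 45 passed after Benjamini-Hochberg adjustment over the 45 pairs, and 16 by Spearman's rho. The share of all gene pairs that would pass this test was not counted, so these counts are not set apart from other genes. Of all pairs 12.9% had an r at or above the median of the 45. The 45 pairs share 10 genes and the same libraries, so they are not independent.

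FKBP5 and KLF9 formed the closest pair (r = 0.94, rho = 0.93; exact permutation p = 0.000694 and 0.00118, adjusted p = 0.0125 and 0.0109). FKBP5 and CDKN1A followed (r = 0.92, rho = 0.94; exact permutation p = 0.00125 and 0.000625, adjusted p = 0.0125 and 0.0109). FKBP5 and ZBTB16 had r = 0.88 and rho = 0.90 (exact permutation p = 0.000903 and 0.00139, adjusted p = 0.0125 and 0.0109). Without luteal 1 and luteal 5, the libraries farthest out in FKBP5, r was 0.88, 0.93 and 0.83 for these pairs. With the replicate block it was 0.74, 0.49 and -0.047, so that the sign of FKBP5 with ZBTB16 turned.

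A pair of kinase and growth factor regulators was as close: SGK1 and ERRFI1 had r = 0.90 and rho = 0.77 (exact permutation p = 0.00604 and 0.0201, adjusted p = 0.0227 and 0.0533), so that rho did not pass. ERRFI1 and PDK4 had r = 0.88 and rho = 0.92 (exact permutation p = 0.000417 and 0.000556, adjusted p = 0.0125 and 0.0109). With the 2 libraries farthest out in the first gene of each pair left out, r was 0.83 and 0.80. FKBP5 and SGK1, the best known genes of each set, were less close, at r = 0.66 (rho = 0.65; exact permutation p = 0.0163 and 0.0323, adjusted p = 0.0385 and 0.0692), and 0.59 without luteal 1 and luteal 5.

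CEBPD had the 3 lowest values of the 45. Its r was 0.06 with SGK1 (rho = 0.10; exact permutation p = 0.857 and 0.775, adjusted p = 0.876 and 0.788), 0.05 with KLF9 (rho = 0.12; exact permutation p = 0.923 and 0.788, adjusted p = 0.923 and 0.788) and -0.19 with HIF3A (rho = -0.15; exact permutation p = 0.560 and 0.673, adjusted p = 0.614 and 0.721). With the 2 libraries farthest out in the first gene of each pair left out, r was -0.31, -0.37 and -0.41. TSC22D3, despite its narrow range, had r = 0.79 with CDKN1A (rho = 0.73; exact permutation p = 0.0234 and 0.0370, adjusted p = 0.0501 and 0.0757). With FKBP5 it had r = 0.78 (rho = 0.73; exact permutation p = 0.0334 and 0.0516, adjusted p = 0.0654 and 0.0967). Neither pair passed, and r was 0.51 and 0.57 with the 2 libraries farthest out left out.

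The first principal component of the libraries moved with most members. Its r was 0.85 with KLF9, 0.84 with SGK1, 0.68 with FKBP5, 0.17 with TSC22D3 and -0.30 with CEBPD, and the median of the absolute r over all genes tested was 0.71. None of the 10 relations with it passed after adjustment over 190 relations of the 10 genes with 19 library measures (exact permutation, adjusted p of r from 0.0630 to 0.805). Without follicular 5 and luteal 5 its r was 0.72 with KLF9, 0.86 with SGK1 and 0.46 with FKBP5. With the component removed as well, the median r of the 45 pairs was 0.63, against 0.00 over all pairs. Then 11 of the 45 were above 0.8, beside 1.59% of all pairs of genes tested. FKBP5 and KLF9 were then at r = 0.95 and FKBP5 and TSC22D3 at 0.92, whereas FKBP5 and SGK1 were at 0.23. CEBPD came to 0.94 with PDK4 and 0.89 with ERRFI1 in that setting, from 0.47 and 0.31. Neither pair had passed before the removal (exact permutation, adjusted p of r = 0.427 and 0.498). Without luteal 1 and luteal 4, the libraries farthest out in CEBPD, r before the removal was -0.28 and -0.04. The pair values with the component removed were not tested.

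**Figure D5:**
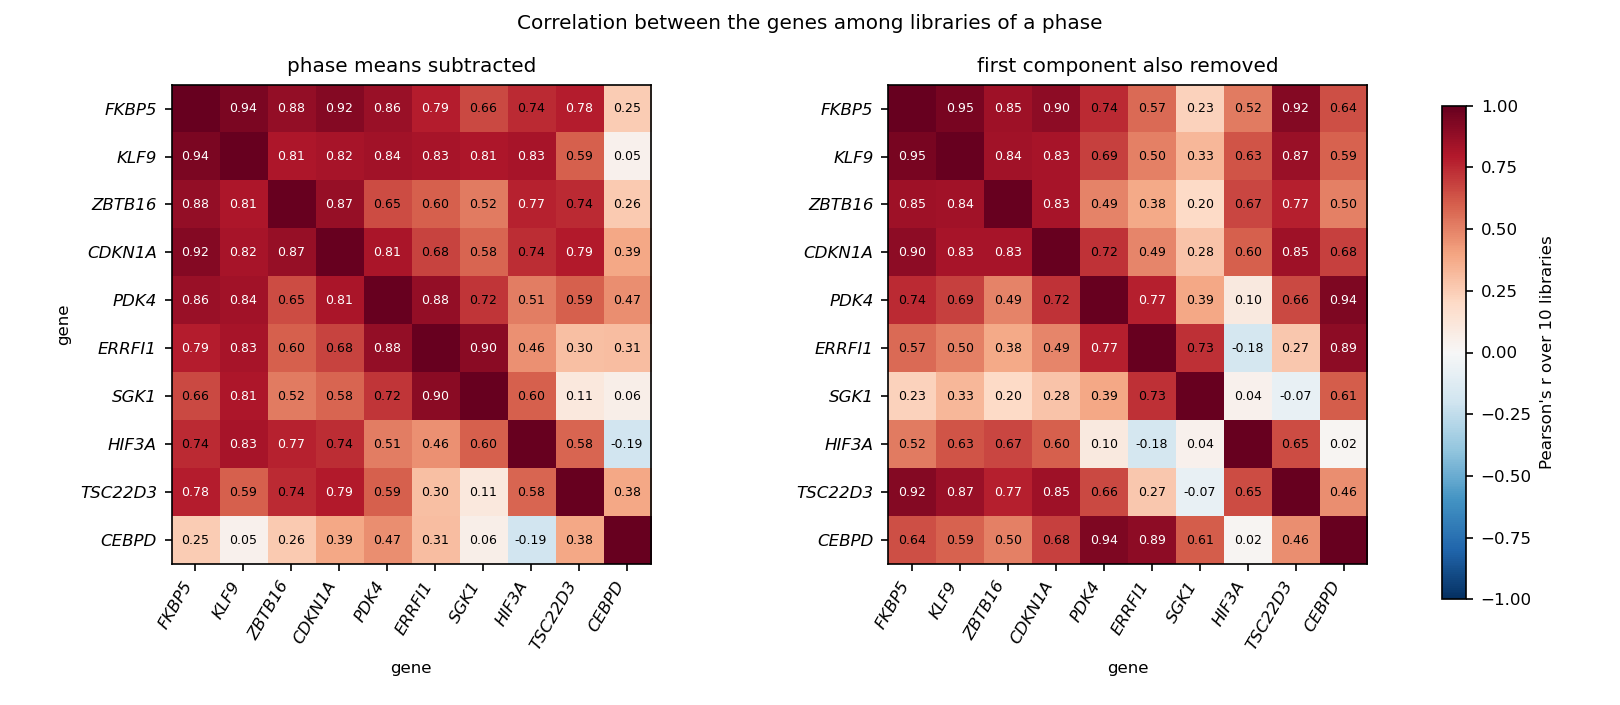
Pearson's r between each pair of the 10 genes over 10 libraries, after subtraction of phase means (left) and with their first principal component removed too (right). FKBP5, KLF9, ZBTB16 and CDKN1A form a block of at least 0.81 in both panels, and the 3 lowest values on the left belong to CEBPD.

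The gene nearest to each member in the whole table was never another member. NEDD9, a docking protein of cell adhesion, was nearest to FKBP5 (r = 0.98 over 10 libraries), followed by PI15 (0.97) and CEMIP2 (0.96), and KLF9 ranked 11th. The nearest genes were ELOVL7, ABCC1 and FYCO1 for ZBTB16 (r from 0.94 to 0.98), HIF1AN, NEK9 and TOR1B for KLF9 (0.98 to 0.99), and NINL, SLCO4A1 and GOLGA5 for CDKN1A (0.97 to 0.98). They were LPCAT2, EEF1AKMT3 and KIAA1958 for HIF3A (0.95 to 0.98), PNKD and STT3A for TSC22D3 (0.95 to 0.96), and SPPL2B, PHF1 and TLN1 for CEBPD (0.95 to 0.97). For SGK1 they were LOC101112109, TICAM2 and LMNB2 (0.97 to 0.98), for PDK4 FOXK2, DNMT3A and PTBP1 (0.97 to 0.98), and for ERRFI1 SRSF3, SNX9 and FBXW2 (0.98 to 0.99). Among the 90 rankings of 1 member by its r with another, 35 (38.9%) put the other member in the top 5% of all genes. For CEBPD 0 of 9 did, its closest member, PDK4, ranking 2448th.

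The 3 receptors of the shared element described here averaged higher in luteal libraries, and 0 passed after adjustment in the edgeR test. With quality weights in limma-voom, 5867 of 18276 genes were called. NR3C1, NR3C2, PGR, FKBP4, PPID, TXNIP, FOXO1, GLUL and BCL6 were among them, in the same directions (limma-voom adjusted p from 0.0109 to 0.0431). PPID, TXNIP, FOXO1, GLUL and BCL6 were named for their small edgeR p in these same libraries, so their calls are not separate evidence. NR3C2, the mineralocorticoid receptor, had 20.7, 22.2, 18.03, 16.7 and 24.03 CPM in follicular and 25.4, 28.5, 33.3, 22.3 and 30.8 CPM in luteal libraries 1 to 5, so that only luteal 4 lay within the follicular range (log2 fold change 0.47, SE 0.14; edgeR adjusted p = 0.426). NR3C1, the glucocorticoid receptor, averaged 20.5 ± 4.22 and 25.4 ± 3.87 CPM (± SD, n = 5 each; log2 fold change 0.31, SE 0.16; edgeR adjusted p = 0.430). PGR, the progesterone receptor, had 1.65 to 2.35 CPM in follicular and 1.86 to 4.07 CPM in luteal libraries (0.56, SE 0.24; edgeR adjusted p = 0.426). Within phases the r of FKBP5 was 0.17 with NR3C1, 0.25 with NR3C2 and 0.05 with PGR.

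Of 13 chaperones and co-chaperones of the receptor complex, 5 averaged higher and 8 lower in luteal libraries, 0 passed, and the median log2 fold change was -0.04. FKBP4 encodes FKBP52, the immunophilin that promotes receptor activity where FKBP5 restrains it. It had 500.1, 436, 589, 601 and 421 CPM in follicular and 392, 356, 330.1, 496 and 370.0 CPM in luteal libraries 1 to 5, with 4 luteal libraries below all follicular ones (log2 fold change -0.39, SE 0.14; edgeR adjusted p = 0.426). Within phases FKBP4 and FKBP5 had r = -0.04. PPID, or cyclophilin 40, averaged 70.3 ± 7.79 and 56.6 ± 7.86 CPM (-0.31, SE 0.12; edgeR adjusted p = 0.426). HSP90AA1, the inducible form of the core chaperone, had a log2 fold change of 0.04 (SE 0.19) and r = 0.76 with FKBP5. The constitutive HSP90AB1 had -0.03 (SE 0.09), which was 0.06 when scaled by library totals alone, and r = 0.47. PTGES3, the p23 co-chaperone, had 0.26 (SE 0.23) and r = 0.73, and the edgeR adjusted p of HSP90AA1, HSP90AB1 and PTGES3 ran from 0.554 to 0.913.

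Enzymes that set the local steroid supply had 4 members tested, of which 0 passed, 1 averaging higher and 3 lower in luteal libraries. HSD11B1, which regenerates active glucocorticoid from its inert form, averaged 72.8 ± 14.0 and 76.9 ± 7.33 CPM (± SD, n = 5 each; log2 fold change 0.08, SE 0.14; edgeR adjusted p = 0.763). Its r with FKBP5 was -0.52, and follicular 5, the highest follicular library for FKBP5, was the lowest for HSD11B1 at 51.05 CPM. HSD11B2, which inactivates glucocorticoid, had 6 to 16 reads per library and was not tested. SRD5A1, a reductase of progesterone and testosterone, averaged 22.8 ± 1.504 and 21.1 ± 2.42 CPM (-0.11, SE 0.11; edgeR adjusted p = 0.590).

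A list of 32 other genes known to answer to glucocorticoids or progestins had 29 tested, of which 21 averaged higher and 8 lower in luteal libraries (median log2 fold change 0.19) and 0 passed. Over all genes 51.5% averaged higher. At an unadjusted p under 0.05 there were 3 higher and 2 lower of the 29, beside 11.4% of all genes in either direction. TXNIP, which blocks glucose uptake, averaged 378 ± 87.0 and 520.3 ± 79.6 CPM (± SD, n = 5 each; 0.46, SE 0.16; edgeR adjusted p = 0.426). FOXO1, a transcription factor of fasting and of decidual cells, averaged 31.4 ± 3.50 and 25.6 ± 1.85 CPM, with all 5 luteal libraries below the follicular ones (-0.29, SE 0.11; edgeR adjusted p = 0.426). GLUL, the glutamine synthetase of astrocytes, averaged 680.4 ± 99.9 and 542 ± 70.4 CPM (-0.33, SE 0.13), and BCL6, a transcriptional repressor, 73.0 ± 14.0 and 94.96 ± 20.5 CPM (0.38, SE 0.17; edgeR adjusted p = 0.426 for each).

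Early responders to glucocorticoid spread between these. NFKBIA, the inhibitor of NF-kappa-B, averaged 49.9 ± 11.0 and 70.3 ± 19.6 CPM (± SD, n = 5 each; 0.49, SE 0.22; edgeR adjusted p = 0.426). The clock gene PER1 averaged 215 ± 34.7 and 240.1 ± 118 CPM, and luteal 4, the top library for CEBPD, was again highest, at 422 CPM, against 109.6 to 281 CPM in the other luteal libraries. Without luteal 4 the log2 fold change of PER1 was -0.15, from 0.16. DUSP1, a phosphatase of stress kinases, averaged 35.1 ± 20.8 and 40.1 ± 4.74 CPM, and DDIT4, an inhibitor of mTOR, 87.2 ± 10.9 and 96.3 ± 8.26 CPM (log2 fold change 0.19, SE 0.37, and 0.14, SE 0.11). The edgeR adjusted p of PER1, DUSP1 and DDIT4 ran from 0.502 to 0.796.

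Within phases the other targets moved with the members more often than not. Of the 29, 26 had r above 0 with FKBP5, as 49.3% of all genes did, and 5 had r above 0.8, as 2.81% of all genes did. BCL6 (0.83) and NFKBIA (0.81) were among those 5, while DDIT4 (0.17), DUSP1 (0.26) and FOXO1 (-0.16) were not. Across the members, 17 (CEBPD) to 27 (CDKN1A) of the 29 had r above 0. An r above 0.8 was reached by 0 with CEBPD, 1 each with TSC22D3, ZBTB16 and CDKN1A, and 2 with HIF3A. It was reached by 5 with PDK4 and 7 each with SGK1, KLF9 and ERRFI1. The share of all genes above 0.8 ran from 0.48% for TSC22D3 to 10.9% for KLF9. The mean of the list per library had r = 0.92 with KLF9 (rho = 0.93; exact permutation p = 0.000278 and 0.000417, adjusted p = 0.0528 and 0.0352) and r = 0.85 with FKBP5 (rho = 0.90; exact permutation p = 0.000764 and 0.000556, adjusted p = 0.0616 and 0.0352). Without follicular 3 and luteal 1, the libraries farthest out in the list, r was 0.96 and 0.89. CEBPD had r = 0.80 with PER1 and 0.63 with DDIT4, values singled out after they were seen, and r = 0.13 with the list.

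Some lists of cell type markers moved with the members too. The mean of 7 oligodendrocyte markers per library had a negative r with all 10 genes, from -0.18 for CEBPD to -0.90 for TSC22D3 (rho = -0.83; exact permutation p = 0.00299 and 0.0203, adjusted p = 0.0630 and 0.142) and -0.86 for FKBP5 (rho = -0.83; exact permutation p = 0.00792 and 0.0143, adjusted p = 0.0752 and 0.142). Without luteal 1 and luteal 5, the libraries farthest out in the markers, r was -0.81 for TSC22D3 and -0.66 for FKBP5. Relative to the average of all libraries, the markers' mean log2 CPM was lowest of its phase in luteal 5 (-0.86) and in follicular 5 (-0.22). Their summed level was 838 to 1417 CPM (follicular) and 514 to 1297 CPM (luteal), and none was at 0. All 7 averaged lower in luteal libraries, as 8872 of 18276 genes did, but 0 had an unadjusted edgeR p under 0.05.

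Of the other lists, some lay on 1 side of 0 with most members and some did not. Vascular mural cell markers had r above 0 with 9 of the 10 genes (median 0.66) as a mean of 7 markers. Single mural markers went both ways, with 3 to 5 of the 7 above 0 for each gene and 3 for FKBP5. The mean of the microglial markers had r below 0 with 9 genes (median -0.59). The mean of the choroid plexus markers had r above 0 with all 10 (median 0.62), at a summed level of 20.6 to 57.2 CPM (follicular) and 34.4 to 116 CPM (luteal). Of its 6 single markers 3 to 5 were above 0 for each gene, and for CDKN1A their median r was 0.38. Ependyma and tanycyte markers had r above 0 with 1 gene (median -0.46), as did pituitary and pars tuberalis markers (median -0.38). Receptor chaperones had r above 0 with all 10 (median 0.70). Astrocyte, neuron, endothelial and mediobasal hypothalamic markers had r above 0 with 4, 4, 3 and 5 genes (medians -0.05, -0.15, -0.17 and 0.01). Immediate early genes, which rise within minutes of stimulation, had r from -0.58 to 0.46 and a median of -0.07. The share of reads on ribosomal protein genes had a median r of -0.53 with the members, from -0.85 for SGK1 to 0.34 for CEBPD. Of the 190 relations 0 passed by r and 5 by rho. Besides the pairs of FKBP5 and KLF9 with the other targets these were ZBTB16 with the microglial markers (r = -0.79, rho = -0.84; exact permutation p = 0.0025 and 0.000486, adjusted p = 0.0630 and 0.0352), HIF3A with the same markers (r = -0.87, rho = -0.92; exact permutation p = 0.00514 and 0.000764, adjusted p = 0.0674 and 0.0363) and CDKN1A with the choroid plexus markers (r = 0.89, rho = 0.93; exact permutation p = 0.00264 and 0.00118, adjusted p = 0.0630 and 0.0449). With the 2 libraries farthest out in the markers left out, r was -0.71, -0.92 and 0.79. The part of cell makeup or library composition in the members' covariation was not tested.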

How the data were processed

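The authors deposited 1 table of whole-number read counts per gene, not normalised, for 5 libraries per phase. TriReagent extraction and stranded mRNA libraries are given per the labels' protocols. Tools named by the submitters' processing notes are featureCounts 2.0.0, SAMtools 1.9, Bowtie2 2.3.5.1, TopHat2 2.1.1, FastQC and bcl2fastq 2.20. Genome build, strand setting and handling of shared reads are not given in the sources used here, so genes with overlapping or near-identical copies (the HSP90 genes, PTGES3) are uncertain. Identifiers matched assembly ARS-UI_Ramb_v3.0 for 94.4% of genes, used for names only.

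Counts were fitted by edgeR 4.0.16 in R 4.3.3 (quasi-likelihood, two-sided, phase as the only term, filterByExpr with minimum count 10 and total 15, TMM), leaving 18276 genes, and Benjamini-Hochberg adjustment ran over all of them at 0.05. Covariation used log2 CPM (prior count 2) minus phase means, tested two-sided by exact permutation of libraries within phases, 14400 arrangements in all. Alternatives included DESeq2 1.42.0 and limma 3.58.1. The scripts were tested on simulated data. Libraries are mixes of separate ewes, and p-values reflect the spread between those mixes.

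The 10 genes, the lists and the rules were chosen with earlier results of these data known. Named besides the members were 3 receptors, 10 genes of the other lists, the 4 other targets and the 1 chaperone and 1 enzyme with the smallest p among genes not already named, the 3 nearest genes of each member (some items are not reported here), and the 5 highest and 3 lowest pairs. FKBP5 with SGK1, TSC22D3 with CDKN1A and FKBP5, and CEBPD with PDK4 and ERRFI1 were chosen after their values were seen. MT2A, SLC19A3 and LCN2 of the other targets were not matched or not tested.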

Additional observations from a re-analysis of the deposited data

Results flagged for a closer look

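CEBPD was at 307 CPM in luteal 4, and the gap to the next luteal library, 122 CPM, was 0.766 of the range of the 5 libraries, above the 0.71 that Dixon's test allows at the 95% level. It was the 1 such case among 58 groups of 5 libraries tested (the named genes in each phase), where chance gives about 1 in 20, or 2.9. The part of this library's makeup in that value was not tested.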

How the results depend on the processing

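Of 23 alternatives, 19 called 0 genes and 21 called 0 of the 10 members. DESeq2 called 35 of 18276 genes and 0 members, and limma-voom with quality weights 5867 of 18276 genes and 2 of the 10 members. With the first component added to the model, edgeR called 5115 of 18276 genes and 1 of the 10 members. That member was SGK1 (log2 fold change 0.75, adjusted p = 0.0184, against 0.0321 to 0.994 under its other alternatives). In neither fit was the share called larger among the members than among all genes. The first component is built from the spread within phases, so removing it lowers the spread by construction. With it NR3C1, NR3C2, FKBP4, PPID, PTGES3, TXNIP, FOXO1, GLUL and BCL6 were also called (edgeR adjusted p from 0.00312 to 0.0423). Of these, PPID, TXNIP, FOXO1, GLUL and BCL6 had been named for their small edgeR p in the same libraries. Leaving out 1 library gave 0 to 1 genes, the 1 without luteal 4, and 0 members. Scaling by library totals alone shifted the median log2 fold change of all genes to 0.11, and HSP90AB1 turned to 0.063.

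Directions of small differences were not stable, and the cause was not tested. FKBP5 was at -0.11 with the replicate block, -0.18 with limma-voom, -0.60 with quality weights, -0.14 without follicular 1 and 3 and -0.047 without follicular 5 and luteal 5, an alternative chosen after seeing the data. Quality weights gave -0.0065 for CEBPD and -0.052 for PER1. Without follicular 1 and 3 the values were -0.011 for KLF9, -0.0013 for PTGES3, -0.26 for DUSP1 and -0.16 for HSP90AA1. With 1 library left out the log2 fold change ran from -0.39 to 0.55 for FKBP5, -0.39 to 0.12 for HIF3A, -0.15 to 0.56 for CEBPD, -0.15 to 0.34 for PER1, -0.040 to 0.23 for HSP90AA1, -0.046 to 0.49 for DUSP1 and -0.023 to 0.17 for HSD11B1.

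The median r of the 45 pairs was 0.76 with library totals alone, 0.63 with the first component removed, 0.62 without follicular 5 and luteal 5, and 0.62 to 0.77 with 1 library left out. The labels give both phases the numbers 1 to 5, but no ewe is shared. For that reason the numbers were not taken as pairs in the main fit. Deviations of same-numbered libraries had r from -0.33 to 0.63 over all genes, and 4 of the 10 libraries correlated best with their own number. Whether the numbers mark a shared batch was not tested. With the replicate block edgeR called 0 genes, and its smallest adjusted p was 0.0520, against 0.426 in the main fit. Its unadjusted p was under 0.05 for 4512 genes and 2 members, against 2083 and 0 in the main fit. The median r with the block was 0.18, and FKBP5 with ZBTB16 turned to -0.047. Precision is limited by 5 libraries per phase.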
